A study of Mus musculus with 6 samples.

Results

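Transcripts for glucose uptake, glycolysis, lactate export, control of pyruvate dehydrogenase and glycogen turnover were followed in D4M-3A cells, a Braf-mutant mouse melanoma line. The cells were compared with and without a CRISPR-Cas9 construct against Nfkbiz. Nfkbiz encodes IκBζ, a nuclear co-regulator of NF-κB. The set held 38 genes chosen by name, with earlier results of these data known. Of these, 37 had a row of that name among the 43043 genes of the tables. The missing name was Aldoa, the main aldolase gene of most tissues. The tables carry rows named Aldoa_1 and Aldoa_2 in its place and do not pair them with a locus, so their values are given separately and are not counted unless stated. RNA was sequenced in 3 control samples (Ctrl), which received an empty CRISPR-Cas9 vector, and in 3 Nfkbiz knockout samples (Nfkbiz KO). Both groups were lentivirally transduced and puromycin-selected lines kept in serum-containing RPMI-1640 medium, and no change of oxygen or glucose supply is named. Whether a line is a single clone is not given in the sources used here. The comparison asks which transcripts of the pathway depend on Nfkbiz in cultured melanoma cells.

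Glycolysis splits glucose into pyruvate in the cytosol. Many tumor cells reduce much of that pyruvate to lactate and export it. Pyruvate dehydrogenase kinases hold back the oxidation of pyruvate in mitochondria by inactivating pyruvate dehydrogenase. Carriers of the Slc2a family bring glucose in, hexokinases trap it as a phosphate, and phosphofructokinase commits it to the pathway under the control of fructose-bisphosphate made by the Pfkfb enzymes. Many of these genes are textbook targets of the hypoxia-inducible factors and of Myc.

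The targeted gene Nfkbiz had 69.1, 75.2 and 63.4 TPM (transcript level normalized for exon length and depth) in Ctrl and 34.8, 34.7 and 35.1 TPM in Nfkbiz KO. Reads on edited transcripts are counted too, so this is a check of the labels and not of the protein. Between 32219900 and 44927203 reads per sample were counted on genes. Of the melanocytic markers, Sox10 and Tyr had 0 reads in every sample, Mlana, Tyrp1 and Dct had at most 3, and Mitf and Pmel had at most 1.21 TPM. Of the markers of dedifferentiated melanoma, Axl had 688 to 909 TPM and Sox9 22.7 to 33.7 TPM, but Ngfr had at most 0.115 TPM. The labelled melanoma cells thus had little of most defining transcripts of pigment cells. The immune transcripts Ptprc and Cd3e were at or near 0, and Cd68 had 1.76 to 4.01 TPM. The keratinocyte transcripts Krt5 and Krt14 had at most 2 reads. Of the endothelial markers, Pecam1 had at most 0.134 TPM and was not called, whereas Cdh5, at 0.397 to 1.83 TPM, was higher in Nfkbiz KO by a log2 fold change of 1.34. Of the mesenchymal markers, Col1a1 (243 to 389 TPM) and Col1a2 (183 to 211 TPM) were lower by -0.58 and -0.21 on the log2 scale, and Pdgfra and Pdgfrb were not called (0.00 and 0.05). The part of cell state in the results below was not tested. In bulk RNA, fewer cells of one kind and less RNA per cell cannot be told apart.

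Most of the pathway was lower in Nfkbiz KO. Of the 36 members with enough reads for a test, 22 were lower, 7 higher and 7 not called. A call means an adjusted p of 0.05 or less in edgeR's quasi-likelihood test of read counts, with p adjusted by Benjamini-Hochberg over the 14419 genes tested. Differences are given as log2 fold change (log2FC) of Nfkbiz KO over Ctrl with its standard error (SE). The share of members called lower was 61.1%, against 18.4% of all genes tested, and the share called higher was 19.4%, against 18.2%. Because the set was chosen with earlier results of these data known, these shares describe it and do not test it. The median log2FC of the tested members was -0.43, and that of all genes tested -0.02. In 31 of the 36 members no Nfkbiz KO sample overlapped with the Ctrl samples in normalized read counts, which held for 48.4% of all genes. The remaining member, Slc2a3, a glucose carrier best known from neurons, had 2 to 10 reads per sample and was not tested. At a log2 fold change of 0.5 or more in size, 12 members were lower and 2 higher, against 7.2% and 6.51% of all genes. Those 12 were Slc16a3, Pdk1, Pfkfb4, Gys1, Pfkl, Ldhb, Eno3, Pgk1, Tpi1, Ldha, Eno1 and Hk2, and the 2 were Slc2a6 and Pdp1. Of these 14, 13 were called whichever sample was left out, the exception being Ldhb. The study's own thresholds (more than 2-fold, the same limit on adjusted p, and a difference above 4, taken here as TPM) were passed by 3 members, Slc16a3 and Pdk1 as lower and Slc2a6 as higher. They were passed by 1.79% of all genes, 1.03% as lower and 0.756% as higher.

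**Figure D1:**
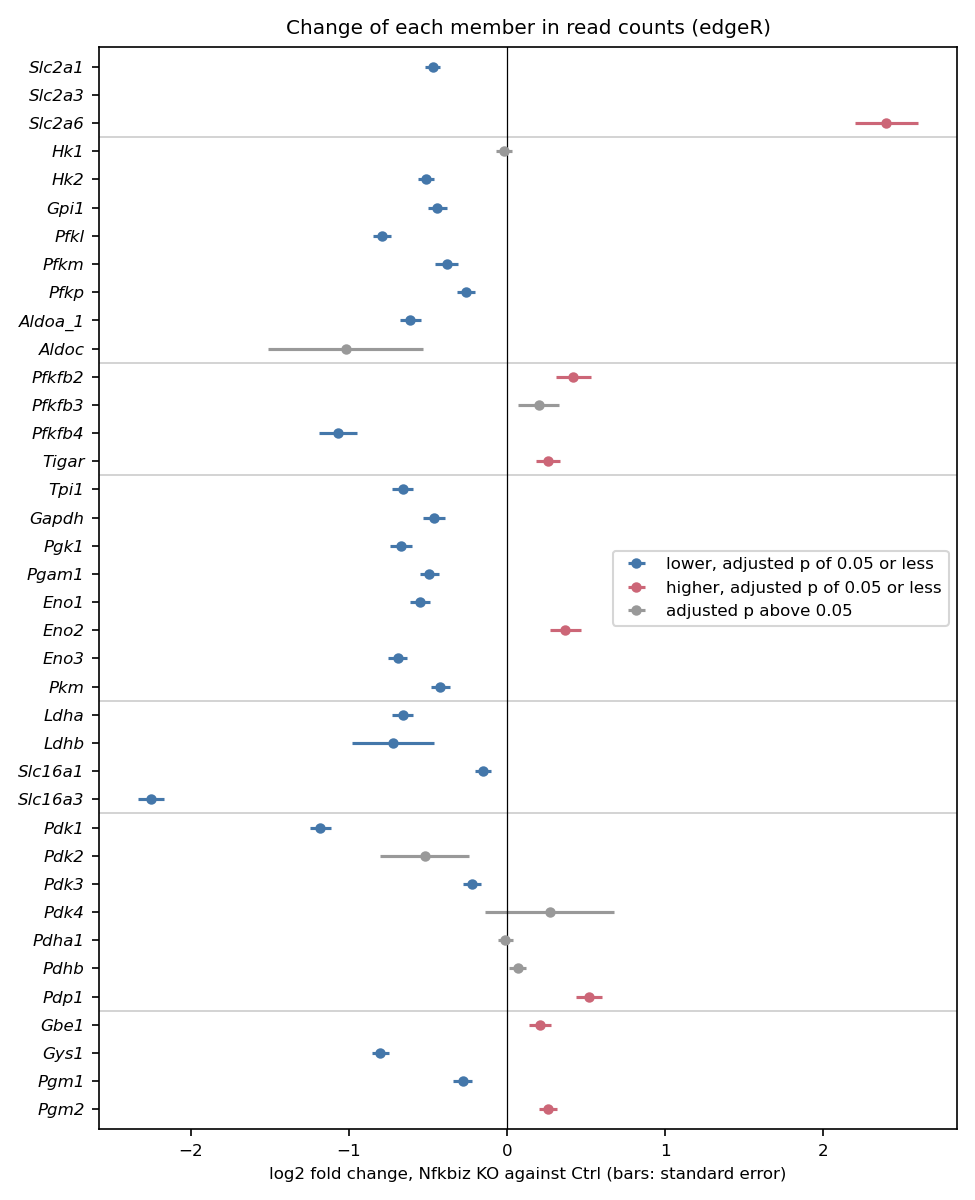
Log2 fold change of each tested member in Nfkbiz KO against Ctrl from read counts, with bars for the standard error (3 samples a group). Genes are ordered by role from uptake at the top to glycogen at the bottom. Of the members, 22 lie to the left as lower, 7 to the right as higher and 7 are grey. The row Aldoa_1 is drawn among them, and Slc2a3 has no point because it was not tested.

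The scale mattered for the balance of calls over all genes, and it moved the members as well. On log2(TPM + 1), tested with limma, 3004 genes were higher and 1327 lower over all genes, so that 69.4% of calls were higher, against 49.8% with read counts. The members gave 8 higher and 17 lower on that scale, against 7 and 22 with read counts. Their median was -0.28, against -0.43 with read counts, and the median of all genes was 0.06, against -0.02. Read counts include reads outside exons and TPM does not, and the test differed as well. The part of each in the difference between scales was not tested.

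The promoters of these genes were searched for the core of the hypoxia response element (HRE), the short DNA word bound by hypoxia-inducible factors. RefSeq promoters of the GRCm38.p6 build, from 250 bases before to 50 after a start, were at hand for 36 member names, Aldoa included, with 52 starts in all. The letters ACGTG or GCGTG stood on either strand in 76.9% of these promoters, in 43.8% of all promoters and in 60.6% of the promoters of genes tested here. For members that were lower the share was 80.0% (24 of 30 promoters). For the few that were higher it was 62.5% (5 of 8 promoters). Some genes have several starts, and by gene these were 19 of 22 and 3 of 6. Read more narrowly, ACGTG alone was in 46.2% of member promoters, 19.6% of all and 24.9% of those of tested genes. That share was 43.3% for members that were lower (12 of 22 genes) and 37.5% for those that were higher (2 of 6 genes). For the members lower by 0.5 or more it was 25.0% (4 of 16 promoters). The overlapping E-box CACGTG, the word bound by Myc with Max, was in 11.5% of member promoters, 7.15% of all and 9.64% of those of tested genes. The STAT word TTCNNNGAA was in 3.85%, 8.3% and 6.86%, and the NF-κB consensus in 13.5%, 8.46% and 10.4%. For members that were lower, the NF-κB share was 10.0%. A match describes letters and not a bound site. For some members with large differences, 1 window of 29 bases around the densest matches is shown 5′ to 3′ on the gene's strand. The HRE core or its reverse complement is in capitals.
Slc16a3, chr11:120949035-120949063, plus strand: cggtgACGTGcgcgggggACGTGccgcgc
Pdk1, chr2:71873210-71873238, plus strand: ccgcctacggggGCGTGgttccagcgagg
Pfkfb4, chr9:108991773-108991801, plus strand: ttgacggatgggGCGTGcttagtccaaaa
Pgk1, chrX:106186948-106186976, plus strand: ggACGTGacaaatggaagtagCACGTctc
Ldha, chr7:46845751-46845779, plus strand: gcctaCACGTGggttcccgCACGTccgct
Hk2, chr6:82774490-82774518, minus strand: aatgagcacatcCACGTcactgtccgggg
Slc2a6, chr2:27028085-27028113, minus strand: aaggcgCACGCgatgggaCACGCccggga
Within 29 bases, Slc16a3, which was lower, carried ACGTG 2 times. Slc2a6, which was higher, carried CACGC, the reverse complement of GCGTG, 2 times. The windows of Pfkl, Ldhb, Eno3 and Eno1, not shown, held only GCGTG or CACGC. The promoters of Gys1 and Tpi1, both lower, held no match in the bases searched, and Pdp1 was without an entry.

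Among the transcripts of the glucose carriers, the major one and a minor one moved in opposite directions. Slc2a1, the widespread GLUT1 carrier, had 160.1, 164 and 158 TPM in Ctrl and 127, 124 and 121 TPM in Nfkbiz KO. It was lower in all 3 Nfkbiz KO samples than in any Ctrl sample (log2FC -0.47, SE 0.05, adjusted p = 1.3e-05, edgeR). Slc2a6, a carrier found on lysosomal membranes and induced in activated macrophages, had 0.605, 1.01 and 1.11 TPM in Ctrl and 5.16, 5.32 and 5.55 TPM in Nfkbiz KO. A log2FC of 2.40 (SE 0.20, adjusted p = 1.8e-06, edgeR) was the largest increase among the members, and it rested on 21 to 233 reads per sample. Slc2a6 lies on the minus strand of chromosome 2 of GRCm39, from 26911226 to 26918092. Its share of the summed TPM of Slc2a1, Slc2a3 and Slc2a6 went from 0.562% ± 0.166 to 4.13% ± 0.229 (SD, n = 3 each). Slc2a1 still made up 95.8% ± 0.256 of that sum in Nfkbiz KO. These shares were fully separated between groups (exact permutation test, two-sided p = 0.1, the smallest that 3 samples against 3 allow).

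Of the genes of the sugar phosphate steps, 5 of 7 tested were lower and 0 higher, against 18.4% and 18.2% of all genes. Hk2, the inducible hexokinase of many tumors, had 57.9, 61.2 and 56.5 TPM in Ctrl and 43.7, 44.7 and 43.4 TPM in Nfkbiz KO (log2FC -0.51, SE 0.05, adjusted p = 6.5e-06, edgeR). Hk1, the housekeeping hexokinase and the more abundant of the pair, had 77.9, 80.4 and 71.0 TPM against 82.2, 80.1 and 79.0 TPM. The Hk1 values overlapped, and its log2FC of -0.02 (SE 0.05) turned to 0.07 on log2(TPM + 1), neither of them called. Hk2 accordingly made up 43.4% ± 0.86 of hexokinase TPM in Ctrl and 35.4% ± 0.561 in Nfkbiz KO (exact permutation p = 0.1). Gpi1, the isomerase that follows, was lower with a log2FC of -0.44 (SE 0.059).

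All 3 phosphofructokinase genes were lower, and the liver-type subunit gene Pfkl moved most. It had 137, 133 and 133 TPM in Ctrl and 85.1, 84.2 and 81.3 TPM in Nfkbiz KO, with a log2FC of -0.79 (SE 0.055, adjusted p = 3.2e-07, edgeR). The muscle-type Pfkm fell by 0.38 on the log2 scale (SE 0.072). The platelet-type Pfkp had 15.8, 18.4 and 16.2 TPM against 15.3, 14.5 and 15.2 TPM. The Pfkp log2FC of -0.26 (SE 0.058) was not called on log2(TPM + 1), at -0.15 with an adjusted p of 0.16 from limma. The Pfkl share of phosphofructokinase TPM went from 74.4% ± 1.27 to 68.1% ± 0.734.

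The aldolase step could be read from the row Aldoa_1 with the caution given above. Aldoa_1 had 1681, 1728 and 1829 TPM in Ctrl and 1224, 1214 and 1225 TPM in Nfkbiz KO, a log2FC of -0.61 (SE 0.067, adjusted p = 1.7e-05, edgeR). The row Aldoa_2 had 2.65 to 3.72 TPM and was not called (log2FC -0.06). Counted as a member, Aldoa_1 would bring the members called lower to 23. The brain aldolase gene Aldoc was near the detection limit, with 4 to 18 reads per sample. Its TPM of 0.447, 0.426 and 0.325 in Ctrl overlapped with 0.477, 0.11 and 0.121 in Nfkbiz KO. Its log2FC of -1.02 (SE 0.49) was not called, and was -1.76 (adjusted p = 0.029, edgeR) without Nfkbiz KO replicate 1.

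The enzymes that set fructose-2,6-bisphosphate, the activator of phosphofructokinase, were not uniform. Pfkfb4, a hypoxia-inducible form of the kinase and phosphatase that makes and removes it, had 6.2, 7.24 and 5.14 TPM in Ctrl and 3.38, 2.8 and 2.94 TPM in Nfkbiz KO. Each Nfkbiz KO sample was below each Ctrl sample, with a log2FC of -1.07 (SE 0.12, adjusted p = 1.5e-05, edgeR). The difference of -3.15 TPM missed the study's threshold on that measure. Pfkfb2, the heart form, had 1.53, 2.28 and 1.55 TPM against 2.79, 3.11 and 2.75 TPM, a log2FC of 0.42 (SE 0.11, adjusted p = 0.01, edgeR). For Pfkfb2, 36.9% of reads mapped uniquely, and those reads alone gave 0.42 with an adjusted p of 0.045 from edgeR. Pfkfb3, the form known from proliferating cells, had a log2FC of 0.20 (SE 0.13) and was not called. Pfkfb4 thus went from 62.8% ± 2.08 to 37.0% ± 1.96 of the summed TPM of these 3 genes, and Pfkfb2 from 18.1% ± 1.84 to 35.2% ± 3.36 (exact permutation p = 0.1 for each). With Pfkfb1, the liver form, which is outside the set, in the sum, the Pfkfb4 share was 49.9% ± 3.29 and 27.9% ± 2.55. Tigar, a p53-inducible phosphatase that lowers fructose-2,6-bisphosphate, had 12.9, 13.1 and 11.3 TPM against 15.6, 16.3 and 15.7 TPM. The log2FC of 0.26 (adjusted p = 0.018, edgeR) was no longer called without Nfkbiz KO replicate 2 or without replicate 3, with adjusted p of 0.07 and 0.058 from edgeR.

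**Figure D2:**
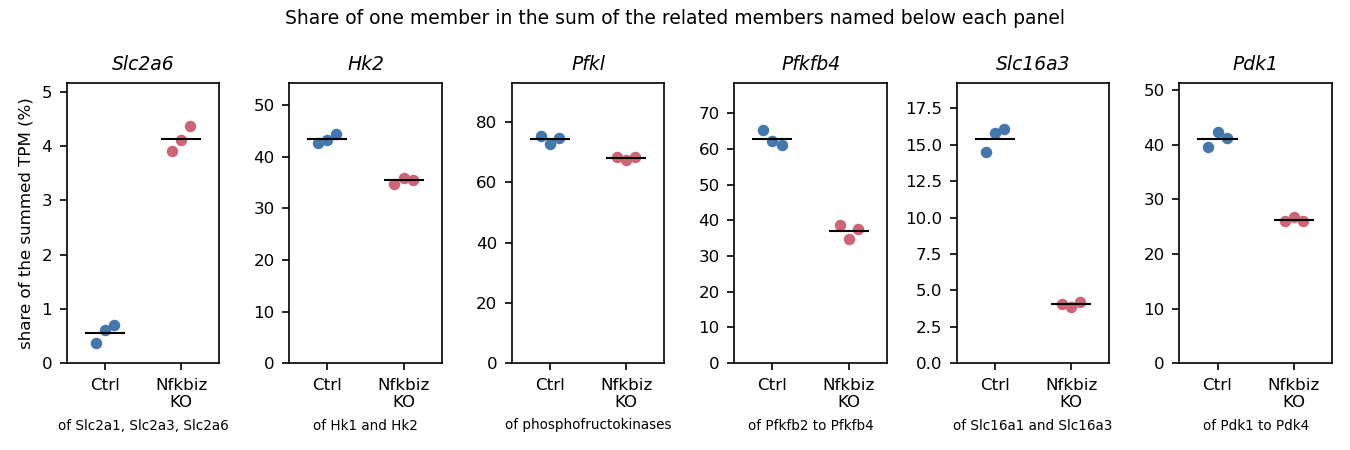
Share of 1 member in the summed TPM of the related members named under each panel, in percent, for each of the 3 Ctrl and 3 Nfkbiz KO samples, with a line at the mean and a separate axis from 0 in each panel. The groups do not overlap in any panel; the Pfkfb4 share goes from 62.8% to 37.0%, the Slc16a3 share from 15.4% to 4.04% and the Pdk1 share from 41.0% to 26.2%.

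The triose steps, from glyceraldehyde phosphate to pyruvate, hold the most abundant transcripts of the set. Of the 8 members, 7 were lower and 1 higher (18.4% and 18.2% of all genes), and none overlapped between groups (48.4% of all genes). Tpi1, which interconverts the triose phosphates, had 878, 953 and 985 TPM in Ctrl and 642, 624 and 642 TPM in Nfkbiz KO (log2FC -0.66, SE 0.066). Gapdh, the dehydrogenase often used as a reference gene, had 1509.9, 1558 and 1675 TPM against 1213, 1238 and 1245 TPM (log2FC -0.46, SE 0.071). Its values in the knockout were thus below those of every control sample. Pgk1, the first enzyme to yield ATP, had 1987, 2307 and 2299 TPM against 1505, 1419 and 1507 TPM (log2FC -0.67, SE 0.072, adjusted p = 1.5e-05, edgeR). Pgam1, the mutase, had 1729.7, 1857 and 1804 TPM against 1387, 1327 and 1396 TPM (log2FC -0.49, SE 0.059). Pkm, which encodes the muscle and tumor forms of pyruvate kinase, had 2281, 2315 and 2388 TPM against 1844, 1874 and 1857 TPM (log2FC -0.42, SE 0.063). Which splice form of Pkm was made cannot be read from gene totals.

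The 3 enolase genes differed in direction. Eno1, the ubiquitous form, had 1996, 2023 and 2107 TPM in Ctrl and 1516, 1489 and 1483 TPM in Nfkbiz KO (log2FC -0.55, SE 0.065). Only 57.7% of Eno1 reads mapped uniquely, and the unique reads gave -0.59. Eno3, the muscle form, had 106, 115 and 113 TPM against 72.8, 75.9 and 73.3 TPM (log2FC -0.69, SE 0.061, adjusted p = 2.4e-06, edgeR). Eno2, the neuronal form, went the other way at a low level, with 3.72, 4.21 and 3.84 TPM against 5.32, 5.3 and 5.96 TPM (log2FC 0.37, SE 0.10). Its call was lost without Nfkbiz KO replicate 3 (adjusted p = 0.073, edgeR).

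Summed over the 17 glycolytic members with rows, from hexokinase to lactate dehydrogenase, the level was 13465 ± 527 TPM in Ctrl and 9892 ± 115 TPM in the knockout (mean ± SD, n = 3 in each group). This was a change of -26.5%, or -26.9% with Aldoa_1 included. The 3 Ctrl sums were 12875, 13629.7 and 13889 TPM and the 3 Nfkbiz KO sums 9963, 9759 and 9954 TPM, without overlap (exact permutation test, two-sided p = 0.1, the smallest possible). By step, the change was -7.83% for hexokinase, -21.0% for the isomerase, -32.2% for phosphofructokinase, -22.1% for Gapdh, -32.8% for Pgk1, -20.2% for Pkm and -32.2% for lactate dehydrogenase. Abundance moved with this result. Of the 133 genes outside the set with a mean above 1000 TPM, a description added after the data were seen, 59.4% were lower and 8.27% higher, with a median log2FC of -0.25. The 6 members above 1000 TPM were all lower, with a median of -0.52. The part of abundance in the result was not tested.

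**Figure D3:**
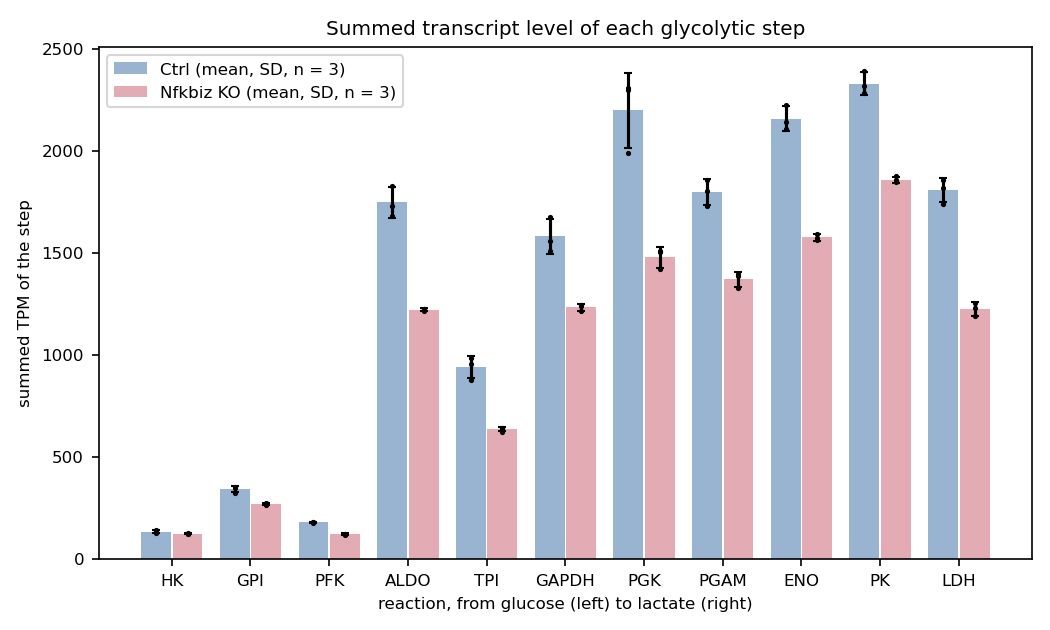
Summed TPM of each glycolytic step from hexokinase (HK) on the left to lactate dehydrogenase (LDH) on the right, on an axis from 0. Bars are means with SD, points are the 3 samples of each group, and the aldolase bar includes the row Aldoa_1. Every step is lower in Nfkbiz KO, from -7.83% for hexokinase to -32.8% for Pgk1.

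At the lactate end all 4 members were lower, against 18.4% of all genes. Slc16a3, which encodes MCT4, the lactate exporter of glycolytic cells, had the largest decrease of the set. It had 21.4, 24.9 and 24 TPM in Ctrl and 5.15, 4.92 and 5.54 TPM in Nfkbiz KO. All Nfkbiz KO values were far below all Ctrl values, with a log2FC of -2.25 (SE 0.082, adjusted p = 1.8e-09, edgeR) that stayed between -2.30 and -2.19 with any sample left out. The gene lies on the plus strand of chromosome 11 of GRCm39, from 120838846 to 120851694. The second carrier, Slc16a1, encodes MCT1, which moves lactate either way. It had 126, 133 and 126 TPM against 122, 123 and 126 TPM, a log2FC of -0.15 (adjusted p = 0.034, edgeR), and its call was lost under 8 alternatives. The Slc16a3 share of the pair went from 15.4% ± 0.843 to 4.04% ± 0.184 (exact permutation p = 0.1). Ldha, the main lactate dehydrogenase gene, had 1738, 1815 and 1854 TPM against 1254, 1187 and 1226 TPM (log2FC -0.66, SE 0.064, adjusted p = 5.5e-06, edgeR). Ldhb, the form of oxidative tissues, had 2.97, 3.48 and 3.42 TPM against 2.83, 2.41 and 1.26 TPM from 30 to 77 reads. Its log2FC of -0.72 (SE 0.26, adjusted p = 0.048, edgeR) was not called under 10 alternatives, DESeq2 among them (adjusted p = 0.095).

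**Figure D4:**
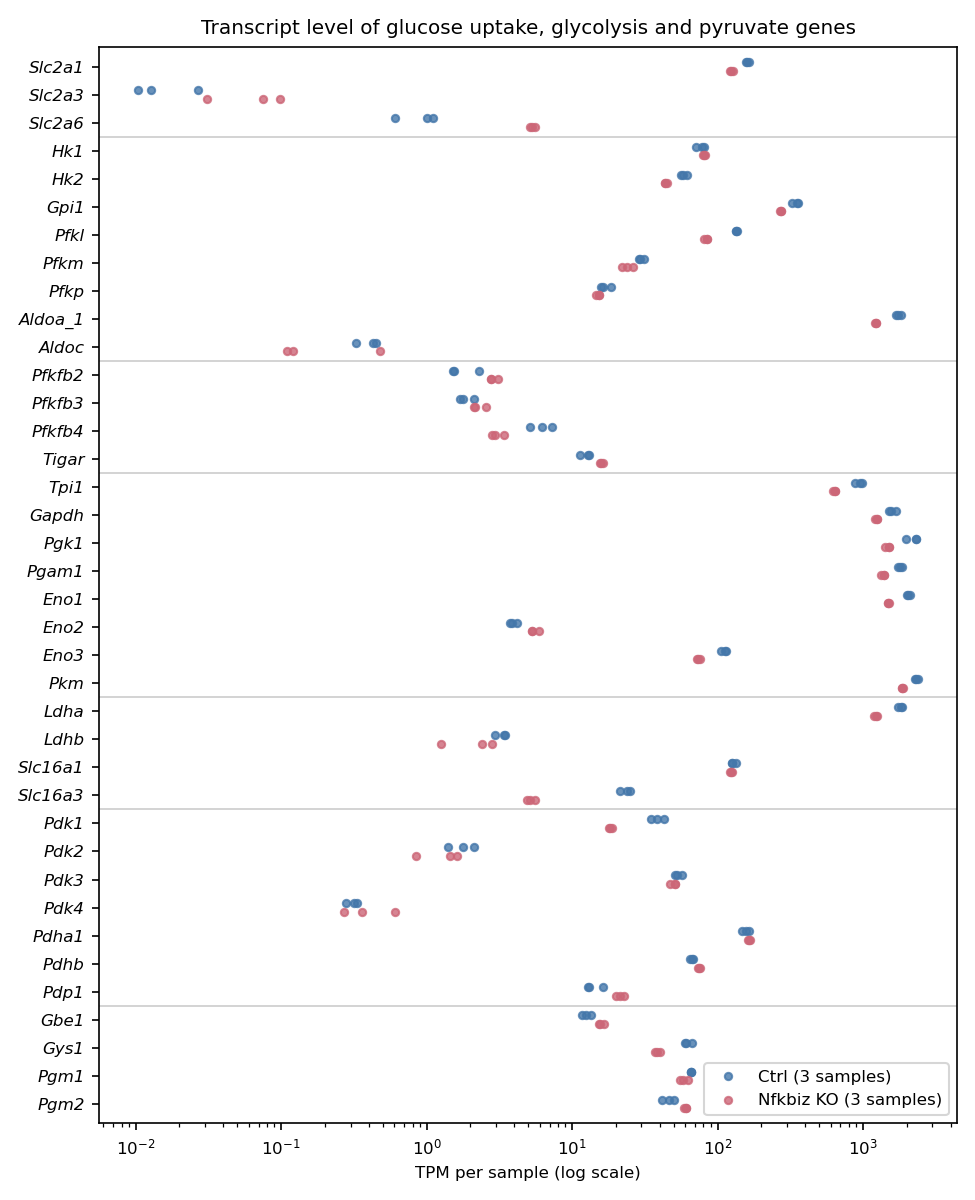
TPM of each member in the 3 Ctrl and 3 Nfkbiz KO samples on a log scale, ordered by role from uptake at the top to glycogen at the bottom, with the row Aldoa_1 added. Slc16a3 (21.4 to 24.9 TPM against 4.92 to 5.54) and Slc2a6 (0.605 to 1.11 against 5.16 to 5.55) show the widest gaps between groups, in opposite directions.

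Of the 7 genes of pyruvate dehydrogenase and its control, 2 kinases were lower (28.6%), 1 phosphatase was higher (14.3%) and 4 genes were not called. The shares over all genes were 18.4% lower and 18.2% higher. Pdk1, a hypoxia-inducible kinase that inactivates pyruvate dehydrogenase, had 35.1, 42.8 and 38.6 TPM in Ctrl and 18.8, 17.9 and 18.2 TPM in Nfkbiz KO. The log2FC of Pdk1 was -1.18 (SE 0.066, adjusted p = 5.6e-08, edgeR), and the gene lies on chromosome 2 of GRCm39 from 71703488 to 71734202. Pdk3, the most abundant kinase of the family here, had 51.3, 57.0 and 53.0 TPM against 51.4, 47.3 and 50.7 TPM. The TPM values of Pdk3 overlapped, whereas its normalized read counts did not (log2FC -0.22, adjusted p = 0.012, edgeR). The Pdk3 call was lost on log2(TPM + 1), with an adjusted p of 0.19 from limma. Pdk1 fell from 41.0% ± 1.34 to 26.2% ± 0.406 of the summed kinase TPM, and Pdk3 made up 56.8% ± 0.819 and 71.3% ± 1.02. Pdk2 and Pdk4 were low and not called, with log2FC of -0.52 (SE 0.28) and 0.27 (SE 0.41). Pdk4 had 0.332, 0.316 and 0.28 TPM against 0.602, 0.359 and 0.271 TPM, and its sign rested on Nfkbiz KO replicate 1, without which it was -0.11.

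Pdp1, a phosphatase that reactivates pyruvate dehydrogenase, had 12.9, 16.2 and 13.0 TPM in Ctrl and 21.2, 20.2 and 22.8 TPM in Nfkbiz KO (log2FC 0.52, SE 0.083, adjusted p = 0.00038, edgeR). The subunit genes in the set, Pdha1 and Pdhb, were not called. Of the subunit genes outside the set, Dlat was higher (log2FC 0.21, SE 0.051, adjusted p = 0.0072, edgeR). Dld and Pdhx were not called (log2FC 0.06 and 0.07). Pdha1 had 157, 165 and 148 TPM against 168, 163 and 165 TPM, with a log2FC of -0.01 (SE 0.048) that was 0.08 on log2(TPM + 1). Pdhb had 67.6, 66.6 and 64.6 TPM against 74.5, 73.2 and 75.5 TPM, without overlap. Its log2FC of 0.07 (SE 0.054) from read counts became 0.17 on log2(TPM + 1), where limma called it (adjusted p = 0.012).

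The glycogen genes divided evenly, with 2 lower and 2 higher, against 18.4% and 18.2% of all genes. Gys1, the glycogen synthase of muscle and most other tissues, had 60.5, 66.7 and 60.0 TPM in Ctrl and 40.5, 37.1 and 38.3 TPM in Nfkbiz KO (log2FC -0.80, SE 0.056, adjusted p = 2.9e-07, edgeR). Gbe1, the branching enzyme, had 11.7, 13.5 and 12.5 TPM against 15.3, 16.6 and 15.5 TPM. The increase of Gbe1 was small in read counts (log2FC 0.21, adjusted p = 0.028, edgeR) and was not called without Ctrl replicate 1 or without Nfkbiz KO replicate 2 or 3. The phosphoglucomutase gene Pgm1 had 65.5, 65.7 and 65.6 TPM against 63.1, 58.3 and 55.0 TPM (log2FC -0.28, SE 0.06), a call lost on log2(TPM + 1). Pgm2 had 46.3, 50.1 and 41.4 TPM against 60.7, 60.8 and 59.1 TPM (log2FC 0.26, SE 0.058). Pgm1 and Pgm2 thus moved in opposite directions.

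Connected pathways gave a mixed picture. Of 57 further genes for glucose carriers, tissue-restricted isoenzymes, pyruvate carriers, glycogen, the pentose phosphate pathway and gluconeogenesis, 40 were tested, 11 (27.5%) were lower and 5 (12.5%) higher, with a median log2FC of -0.09. Over all genes tested, 18.4% were lower and 18.2% higher. Ppp1r3b, which targets a phosphatase to glycogen, had 2.64, 3.31 and 2.7 TPM in Ctrl and 1.4, 1.33 and 1.24 TPM in Nfkbiz KO (log2FC -1.20, SE 0.14, adjusted p = 3.9e-05, edgeR). Emb, which escorts lactate carriers to the membrane, had a log2FC of -1.55 from only 4 to 22 reads per sample, and DESeq2 did not call it (adjusted p = 0.057). Bsg, the other escort of lactate carriers, had 1093, 1117 and 1177 TPM against 1006, 981 and 944 TPM (log2FC -0.31, SE 0.064). Pdpr, a regulatory partner of the pyruvate dehydrogenase phosphatase, had 6.38, 7.83 and 4.41 TPM against 10.6, 11.6 and 10.1 TPM (log2FC 0.64, SE 0.12, adjusted p = 0.0014, edgeR). Pdpr and Pdp1 both rose. G6pdx, the entry enzyme of the pentose phosphate pathway, had a smaller decrease (log2FC -0.39). Smaller increases included Adpgk, an ADP-dependent glucokinase (0.36), and Pck2, the mitochondrial form of phosphoenolpyruvate carboxykinase (0.34). The subunits Mpc1 and Mpc2 of the mitochondrial pyruvate carrier were not called, at 0.19 (adjusted p = 0.051, edgeR) and -0.24.

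Of 21 genes known to regulate glucose metabolism, 20 were tested, 8 (40.0%) were lower and 5 (25.0%) higher, against 18.4% and 18.2% of all genes. The oxygen-sensing group held the largest decreases. Egln3, an oxygen-sensing hydroxylase, had 239, 258 and 254 TPM in Ctrl and 104, 103 and 93.8 TPM in Nfkbiz KO (log2FC -1.42, SE 0.061). Hif1a had 186, 225 and 188 TPM against 102, 97.4 and 99.6 TPM (log2FC -1.10, SE 0.06, adjusted p = 4.5e-08, edgeR). Its paralog Epas1 had 11.5, 10.9 and 9.6 TPM against 4.42, 5.17 and 4.55 TPM (log2FC -1.28, SE 0.095). These 3 genes passed the study's thresholds. Egln1, Arrdc4 and Vhl were lower with log2FC of -0.56, -0.54 and -0.50. Arnt, the shared partner of the hypoxia-inducible factors, was not called (log2FC -0.12, SE 0.076). Myc and Max, in contrast, were each higher by 0.25 (adjusted p = 0.0019 and 0.002, edgeR). Ppargc1a, a co-activator of mitochondrial genes, had 0.295, 0.197 and 0.264 TPM against 0.979, 0.6 and 0.697 TPM (log2FC 1.31, SE 0.31, adjusted p = 0.0053, edgeR), from 16 to 60 reads per sample. Whether any of these moved the members was not tested.

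**Figure D5:**
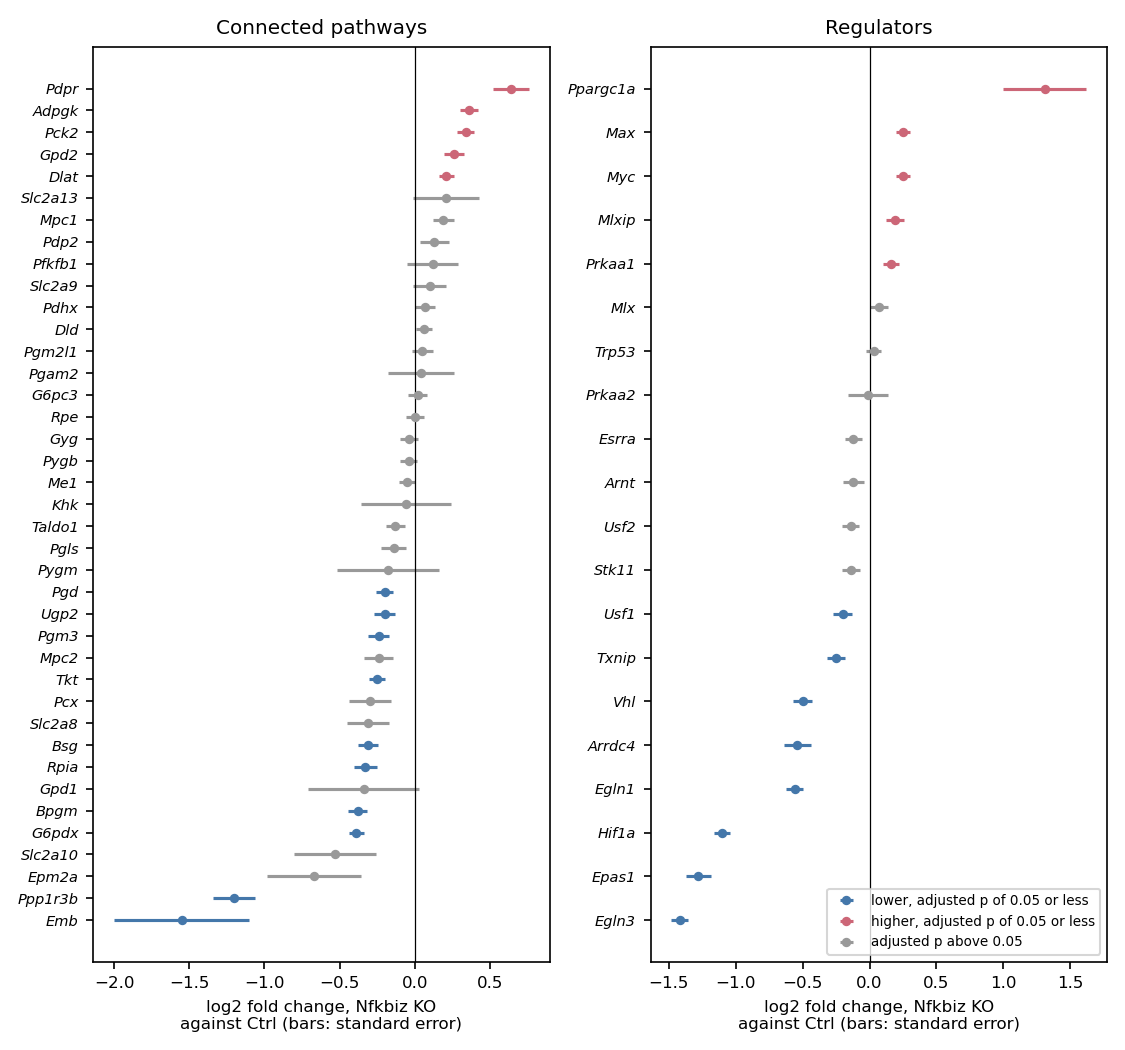
Log2FC, with bars for the SE, of the tested genes of connected pathways, 1 of which is not drawn, and the 20 tested regulators, each sorted by size. Egln3, Epas1 and Hif1a stand at the low end of the regulators, from -1.42 to -1.10, and Ppargc1a at the high end with 1.31.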

How the data were processed

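Total RNA of 3 Ctrl and 3 Nfkbiz KO samples, grouped by their labels, was sequenced as paired 150-base reads on an Illumina NovaSeq. The authors processed the reads with CLC Genomics Workbench 24.0, using both strands, at most 10 hits a read and no broken pairs. The build is GRCm39 in the methods and GRCm38 in the submitters' processing notes. The deposited tables give total and uniquely mapped gene reads as raw counts, with TPM and RPKM values that the authors normalized to exon length and depth. RPKM was not used.

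Total gene reads were tested with edgeR 4.0.16 in R 4.3.3 (TMM normalization, filterByExpr at its defaults, 10 reads and a total of 15, quasi-likelihood test, two-sided, Benjamini-Hochberg adjustment over 14419 genes). The procedure was checked on simulated counts. Without strand, reads of overlapping genes cannot be told apart. The methods speak of at least 3 independent biological replicates. Samples held 96.5% to 96.88% unique reads. Within groups the counts differed by more than counting noise, so no sample was a copy of another. Chi-square per degree of freedom was 28.4 to 72.8 between Ctrl samples and 3.54 to 6.32 between Nfkbiz KO samples. These values cannot tell separately made lines from repeat cultures or libraries of 1 line.

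The members and lists were chosen with earlier results of these data known. Values in every sample are given for members called with a log2 fold change of at least 0.5 in size, for the most abundant member of each family, and for members whose call or sign changed under an alternative. Of the other lists, genes called at that size were named, at most 6 in each direction. Bsg, G6pdx, Adpgk, Pck2, Mpc1, Mpc2, Dlat, Dld, Pdhx, Arnt, Myc and Max were added after their values were seen. Vhl, just short of that size before rounding, was named as well. Some listed genes are counted but not reported here by name.

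Alternatives were DESeq2 1.42.0, RLE factors, a filter of 1 read in any sample, unique reads, limma 3.58.1 on log2(TPM + 1) and log2(TPM + 0.1), a replicate block and each sample left out. Gene coordinates come from a GRCm39 annotation matched by symbol. Tables and plots were made in Python 3.11.15 with pandas 2.3.3 and matplotlib 3.10.9.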

Additional observations from a re-analysis of the deposited data

How the results depend on the processing

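For the named members and genes, 569 alternative values kept direction and call, 34 lost a call, 3 gained one and 5 changed sign. Where the cause of a change is not given, the cause was not tested. With each sample left out, members called lower ranged from 19 to 22 and higher from 4 to 7. The lowest numbers came without Nfkbiz KO replicates 2 and 3, respectively. Calls over all genes fell there too, from 2647 lower and 2627 higher of 14419 tested. They were 1931 and 1989 of 14707 without replicate 2, and 1842 and 1956 of 14684 without replicate 3. Lower connected genes ranged from 7 (without Nfkbiz KO replicate 3) to 11, and higher regulators from 3 to 5, with 3 without any one sample except Ctrl replicate 2. On log2(TPM + 1) and log2(TPM + 0.1), all genes lower numbered 1327 and 1279, higher regulators 3 and 3, and the member median was -0.28 and -0.33. On these scales Hk1 turned to 0.07 and 0.08 and Pdha1 to 0.08 and 0.08, none of them called, and Pdk4 ranged from -0.11 (without Nfkbiz KO replicate 1) to 0.52 (without replicate 3). From total and unique reads in place of TPM, the share of Pfkfb4 changed by -22.1 and -23.2 percentage points (-25.8 in TPM, -22.0 with Pfkfb1 in the sum, an alternative added after the data were seen), that of Slc2a6 by 3.21 and 3.22, that of Eno3 by -0.167 and -0.225, and that of Slc16a3 by -13.4 and -13.4. The Ldhb share moved by -0.0052 points, and by -0.0296 to 0.0319 with a sample left out (without Nfkbiz KO replicates 1 and 3). With ACGTG alone, 46.2% of member promoters had a match. Replicate numbers did not pair the samples (correlations of deviations 0.0367, -0.0233 and 0.0256). A replicate block gave 20 members lower and 7 higher, and 2527 and 2560 of all genes. Without the cut-off on the difference, 4 members passed the study's thresholds, Pfkfb4 being the one added. The share over all genes at that setting is not given here. A total of 3 reads was taken as the floor of detection, so Slc2a3, Aldoc and Emb rest on few reads. With 3 samples a group, the exact permutation test cannot go below 0.1.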
